A study of Mus musculus with 21 samples.

Results

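The chaperone and protein folding genes were taken as every gene symbol of the deposited count table that starts with Hsp followed by a, b, d, e, h or 9, with Dnaj, with Cct2 to Cct8, or with Pdia. The rule found 88 of the 21000 symbols, namely 29 Hsp, 45 Dnaj, 9 Cct and 5 Pdia genes. It reads names only, so that some members are not folding factors, such as Dnajc6, which encodes the clathrin uncoating protein auxilin, and Hspb11, which encodes a subunit of intraflagellar transport.

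RNA sequencing had been performed on hematopoietic stem cells (HSCs, sorted as CD150+CD48-LSK bone marrow cells) of C57BL/6 mice of both sexes, in 21 libraries of 3000 to 3500 cells, 3 for each of 7 groups. Mice that were 10 weeks old at the start received intraperitoneal PBS or 150 mg/kg of 5-fluorouracil (5-FU), an antimetabolite that kills dividing blood cells and after which dormant HSCs divide, either once or 3 times at intervals of 21 days. HSCs were isolated at day 6 after PBS once, 5-FU once, PBS 3 times or 5-FU 3 times, at day 21 after 5-FU once or 3 times, and from untreated mice aged 2 years (old), of which each library held 1 mouse. There was no PBS group at day 21, and for 5-FU at day 6 the sorting gate was widened to c-Kit-dim cells and the Mac-1 antibody was left out, so that gate and treatment cannot be told apart in comparisons that use these libraries.

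Chaperones hold unfolded polypeptides and release them in cycles driven by ATP. Hsp70 proteins are loaded by J-domain (Dnaj) proteins and emptied by nucleotide exchange factors, Hsp90 finishes kinases and receptors, and ring-shaped chaperonins enclose whole proteins, Hsp60 with its lid Hsp10 in mitochondria and TRiC, built from Cct subunits and Tcp1, in the cytosol. In the endoplasmic reticulum (ER), the Hsp70 protein BiP (Hspa5), Hsp90b1 and the protein disulfide isomerases (Pdia) fold secreted and membrane proteins. Quiescent HSCs are known for a low rate of protein synthesis.

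Levels are given as CPM, counts scaled to a common library total with factors from the trimmed mean of M values (TMM). Library totals ranged from 22184885 to 38649033 counts, and a signal of 3 counts corresponded to 0.085 to 0.128 CPM, which covers counting error only. Of the 88 members, 4 had no count in any library, 11 stayed under 1 CPM in every library, among them Hspb1, and 79 passed the filter on low counts over all libraries. All 10 HSC markers were detected in every group, with summed levels of 3908 to 4314 CPM after PBS once and 3148 to 3296 after 5-FU once at day 6, and of 3762 to 4105 and 2758 to 2841 after PBS and 5-FU 3 times. Against PBS, 3 of the 10 were called higher and 2 lower after 1 administration, and 1 higher and 4 lower after 3, and the part of this in the changes of the members was not tested. Summed over the 88 members, the level was 7607 ± 272 CPM after PBS once (SD, n = 3 here and throughout) and 8968 ± 359 after 5-FU once at day 6. After 3 administrations it was 7286 ± 354 CPM with PBS and 8919 ± 186 with 5-FU at day 6. The 6 libraries of 5-FU at day 6 had sums above those of all the other 15. These sums weigh abundant members most, as Hspa8 alone was at 1544.5 ± 155.8 CPM after PBS once and 2035.8 ± 160.4 after 5-FU once at day 6. They also add members whose counts scale differently with the library total, as described below. At day 21 the sums were 7556 ± 57.4 CPM after 5-FU once and 7584 ± 129 after 5-FU 3 times, and in old HSCs 7936 ± 192. In such bulk samples, fewer cells of a type and less RNA per cell cannot be told apart.

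Among 79 members tested for any difference over the 7 groups with the quasi-likelihood test of edgeR, 44 passed an adjusted p of 0.05, where 37.6% of all 13571 genes tested did. Of these, 18 were Hsp genes (27 tested), 17 Dnaj (40 tested), 5 Cct (8 tested) and 4 Pdia (4 tested).

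The counts themselves limit what can be compared among the members, which was noticed after the data were seen. Within groups, the counts of some members rose less than in proportion to the library total. A depth exponent was computed for 66 members, as the slope of the log count on the log total after removal of the group means, where 1 stands for proportion. The median exponent was 0.97 in 33 members for which RefSeq lists 2 or more curated transcripts, and 0.478 in 33 members with a single curated transcript. Among all genes treated alike the medians were 0.991 (5457 genes) and 0.697 (4502 genes). Hsp90ab1 had an exponent of 0.244, Hspe1 of 0.273, Pdia3 of 0.336 and Cct8 of 0.463, while Hspa8 had 1.16, Hspd1 1.02, Cct5 1.02 and Hspa5 0.994. The CPM of a gene with a low exponent falls as the total grows, so that levels of members with 1 and with several curated transcripts were not compared with each other. Mean totals were 24823656 counts after PBS once and 25732871 after 5-FU once at day 6, 29936341 and 34919487 after 3 administrations of PBS and 5-FU, and 31919264 and 26109789 at day 21 after 5-FU once and 3 times.

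**Figure D1:**
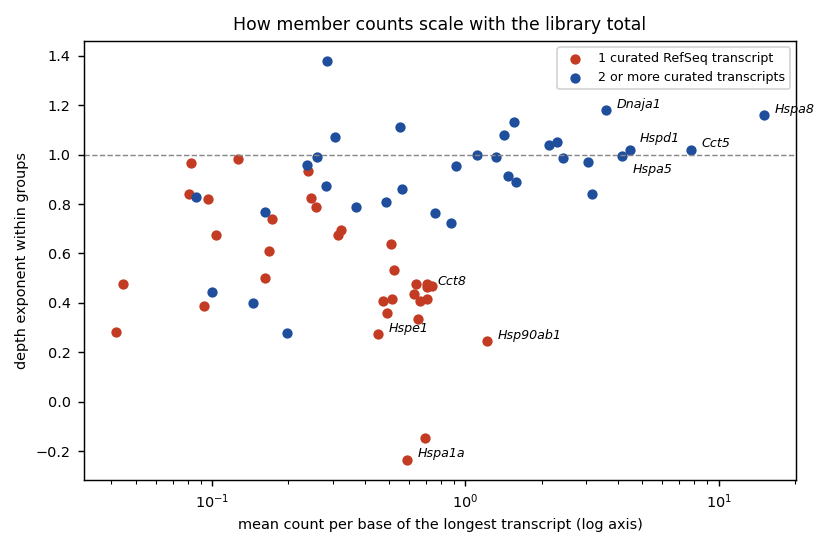
Depth exponent (slope of log count on log library total within the 7 groups, 21 libraries) of 66 members against their mean count per base on a log axis, with colors for members with 1 and with 2 or more curated RefSeq transcripts. A value of 1 means counts in proportion to the total; Hsp90ab1 (0.244) and Hspe1 (0.273) lie far below it, Hspa8 (1.16) and Hspd1 (1.02) near it.

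The first question was how 5-FU changed these genes at day 6, when HSCs were sampled after myeloablation. After 1 administration, 15 of 75 members tested were called higher (20%) and 5 lower (6.67%), where 11.5% of all 12759 genes were called higher and 10.6% lower. The median log2 fold change was 0.17 over the members and -0.00056 over all genes. After 3 administrations, 12 of 75 were called higher (16%, against 9.84% of 12729 genes) and 5 lower (6.67%, against 8.3%), with medians of 0.11 and -0.011. Without a scaling factor on the library size, 5 members were called higher and 6 lower after 3 administrations. Leaving the factor out shifts the CPM of all genes of a library alike. The share of all genes called in that fit is not given here, so that these counts cannot be set against it. By family, 9 Hsp (23 tested), 3 Dnaj (40), 3 Cct (8) and no Pdia gene (4) were called higher after 1 administration, and 6 Hsp (24), 4 Dnaj (39), 2 Cct (8) and no Pdia gene (4) after 3. With 1 library left out in turn, 9 to 15 members were called after 1 administration and 7 to 15 after 3.

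The comparisons after 1 and after 3 administrations share no library. Of the members called higher, 9 were the same, 60% of the 15 and 75% of the 12. These were Hspd1, Hspa4, Hspa5, Hspa8, Hspa14, Dnaja1, Dnajc19, Cct2 and Cct5. Of the members called lower, Dnajb2, Dnajb9, Dnajc6 and Hspa2 were shared, 80% of the 5 in either comparison. The shared part of all genes called was not computed, so that these percentages cannot be read as particular to the members. The calls of Hspd1, Hspa4, Dnaja1, Dnajb2 and Dnajc6 held in both comparisons whichever library was left out, while Hspa5 was still called in 2 and 1 of 6 such fits after 1 and 3 administrations, Hspa8 in 3 and 4, Hspa14 in 1 and 6 and Cct5 in 1 and 3. Cct2 was still called in 6 and 1, Dnajc19 in 6 and 1, Hspa2 in 6 and 1 and Dnajb9 in 3 and 0. A test of the difference between both effects, the interaction of 5-FU with the number of administrations, called 0 of 76 members with edgeR, where it called 0.65% of 13227 genes. At an unadjusted p under 0.05 there were 8 members, and DESeq2 called 1, with no share of all genes given for either count. The smallest interaction p-values belonged to Dnajb5 (log2 difference -1.18 (adjusted p = 0.125)), Hspb11 (-0.76 (adjusted p = 0.173)) and Dnajc5 (0.29 (adjusted p = 0.227)). For Hspd1 the log2 difference was -0.0032 with an SE of 0.12.

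**Figure D2:**
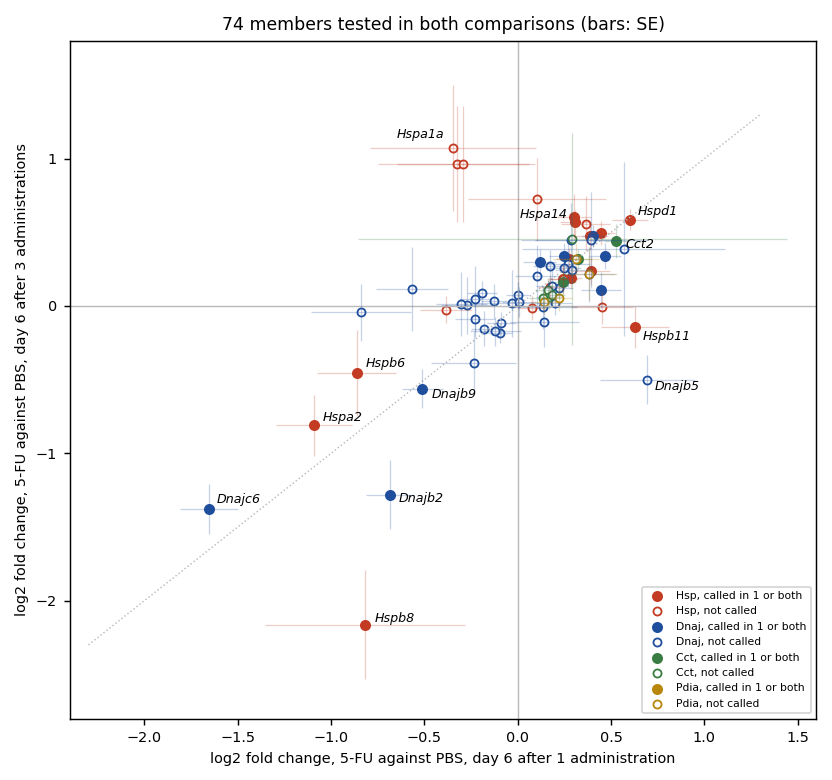
Log2 fold change of 5-FU against PBS at day 6 after 1 administration (horizontal axis) and after 3 (vertical axis) for the 74 members tested in both, with bars for the standard error. Hspd1 (0.60 and 0.59) lies near the line of equal change, and Dnajc6 (-1.65 and -1.38) far below 0 on both axes.

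Markers of other blood cells differed at day 6 as well. The summed level of 13 myeloid markers was 102 to 153 CPM after PBS once and 61 to 75.3 after 5-FU once, with 6 of 10 tested called lower, Ctsg at 0 in both groups and Ly6g at 0 after 5-FU. After 3 administrations it was 92.9 to 126 CPM with PBS and 53.4 to 77.1 with 5-FU, with 2 of 9 called lower and Ly6g at 0 after 5-FU. The sum of 7 erythroid markers was 29 to 39.2 CPM after PBS once and 105 to 115 after 5-FU once, and 31.1 to 45.2 and 48.6 to 65.2 after 3 administrations. Megakaryocyte markers (6 genes) summed to 165 to 202 and 107 to 112 CPM after 1 administration and to 176 to 185 and 150.5 to 160.1 after 3. The part of such cells in the changes of the chaperone genes was not tested.

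Hspd1, which encodes mitochondrial Hsp60, rose by nearly the same amount in both arms. Its libraries were at 355, 325 and 293 CPM after PBS once and at 463, 547 and 475 after 5-FU once at day 6. After 3 administrations they were at 322, 357 and 328 CPM with PBS and at 504, 496 and 532 with 5-FU. All 6 libraries of 5-FU at day 6 were above the other 15, the old ones included, and the log2 fold changes were 0.60 ± 0.10 (adjusted p = 0.00679) and 0.59 ± 0.071 (adjusted p = 0.00389), each ± SE. Such orders against all other libraries, here and below, were looked up for some members only. The share of all genes with such an order was not computed. Hspe1, which encodes the lid Hsp10, was at 13.7, 14 and 16.5 CPM after PBS once and at 20.1, 18.9 and 19.4 after 5-FU once. It was called higher, by 0.39 ± 0.10 (adjusted p = 0.0342), and after 3 administrations the groups again did not overlap (13.6 to 14.2 and 15.2 to 17.8 CPM) but the change of 0.24 did not pass the test.

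Genes of the mitochondrial import motor were called less evenly. Hspa9, the Hsp70 that pulls proteins into the matrix, was at 76.2 ± 1.52 CPM after PBS once and 93.3 ± 0.929 after 5-FU once, a rise of 0.28 ± 0.062 (adjusted p = 0.0193), and at 71.9 ± 2.36 and 83.3 ± 2.61 after 3 administrations (0.19 (adjusted p = 0.121)). Dnajc19, a subunit of that motor, rose by 0.47 ± 0.085 and 0.34 ± 0.09 on the log2 scale after 1 and 3 administrations. Dnajc15, its close relative, rose by 0.44 ± 0.11 after 1 administration and was at 0.11 after 3. Dnajc11, a protein of the mitochondrial membranes, was called after 3 administrations (0.34 ± 0.089 (adjusted p = 0.0401)) and was at 0.25 (adjusted p = 0.0629) after 1. Of 14 listed genes for mitochondrial folding and proteolysis outside the members, edgeR called none in either comparison. At an unadjusted p under 0.05 there were 4 and 3, and the share of all genes at that p is not given here.

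Hspd1 (chr1:55077835-55088243, GRCm38) and Hspe1 (chr1:55088132-55091307) are neighbours on opposite strands, and both rose after 1 administration. RefSeq (GRCm38.p6) promoters were given for 73 of the 88 members, and Hspa8, Hspa9, Hsp90aa1 and Hsp90ab1 were among those without. The heat shock element, the site of heat shock factors, was searched in the 250 bases before each RefSeq start on both strands as GAANNTTCNNGAA or TTCNNGAANNTTC, whose matches can overlap. It was found in 4 of 92 member promoters (4.35%), those of Hspd1, Hspe1 and 2 of Dnajb6, and in 153 of 32851 promoters of all genes (0.466%). Promoters were counted and not sites. Both Dnajb6 windows hold the same match, at chr5:29735852-29735864, and Hspd1 and Hspe1 also share theirs, so that the 4 promoters are not 4 separate sites. The Hspd1 and Hspe1 windows share 215 bases, and within them the same site, a pair of overlapping matches printed in capitals on the strand of each gene. It lies at chr1:55088053-55088082, 144 bases before the Hspd1 start and 89 before that of Hspe1, inside a 5′ exon of a longer Hspd1 transcript of GENCODE vM21.
Hspd1: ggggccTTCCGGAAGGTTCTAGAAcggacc
Hspe1: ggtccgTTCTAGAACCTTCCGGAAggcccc
The third gene with a match, Dnajb6, was at 287 ± 9.54 CPM after PBS once and 289 ± 12 after 5-FU once. Another Hspd1 window (chr1:55088244-55088493) held no match, nor did those of Hspa1a, Hspa1b, Dnajb1 and Hsph1. Where no match was found, these letters are not in the window, and other spellings of the element were not searched.

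In the cytosol, the Hsp70 class genes Hspa8, Hspa4 and Hspa14 and the J-domain gene Dnaja1 were called higher at day 6 in both arms, while Hspa2 and Dnajb2 were called lower in both. Hspa8, which encodes the constitutive Hsp70, was at 1598, 1666 and 1369 CPM after PBS once and at 1980.1, 2217 and 1911 after 5-FU once. The libraries of 3 administrations were at 1531, 1310.0 and 1248 CPM with PBS and at 2097, 1853 and 1821 with 5-FU. The groups did not overlap in either arm, and the log2 fold changes were 0.39 ± 0.09 (adjusted p = 0.023) and 0.48 ± 0.10 (adjusted p = 0.0173). Of the Hspa8 exon bases, 6.09% are shared with small nucleolar RNA genes on the same strand, so that some of its counts may be theirs. Other members share exon bases as well, such as Hspa14 (7.91%) and Hsp90b1 (5.38%) on the same strand. On the other strand the share was 71.9% for Hspa1l, 44.1% for Dnaja4, 19% for Hspa1a and 10.3% for Hsp90b1. How such reads were counted is not given in the sources used here.

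Dnaja1, a J-domain protein that loads clients on Hspa8, was at 657 ± 17.9 and 874 ± 42.9 CPM after PBS and 5-FU once, and at 573 ± 38.3 and 808 ± 45.6 after 3 administrations, rises of 0.40 ± 0.058 (adjusted p = 0.0049) and 0.48 ± 0.076 (adjusted p = 0.0086). Hspa4, a nucleotide exchange factor of the Hsp110 class, was at 49.7, 44.4 and 50.2 CPM after PBS once and at 65.5, 65.1 and 67.1 after 5-FU once, and at 42.1 to 47.7 and 62.8 to 64.5 after 3 administrations. As for Hspd1, all 6 libraries of 5-FU at day 6 were above the other 15, with log2 fold changes of 0.45 ± 0.076 and 0.49 ± 0.081. Hsph1, of the same class, was called after 3 administrations (0.60 ± 0.15 (adjusted p = 0.0366)) and not after 1 (0.30 (adjusted p = 0.0583)), and its PBS levels were 79.9 ± 3.06 CPM once and 56 ± 11.6 after 3 times. Hspa14, which acts at the ribosome with Dnajc2, rose by 0.31 ± 0.085 and 0.57 ± 0.085, and Dnajc2 itself was at 0.25 and 0.26 without a call. Dnajb1, the J-domain protein of the heat shock response, was not called, at 109 ± 5.03 and 101 ± 4.41 CPM after PBS and 5-FU once and 116 ± 16 and 121 ± 9.44 after 3 administrations.

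**Figure D3:**
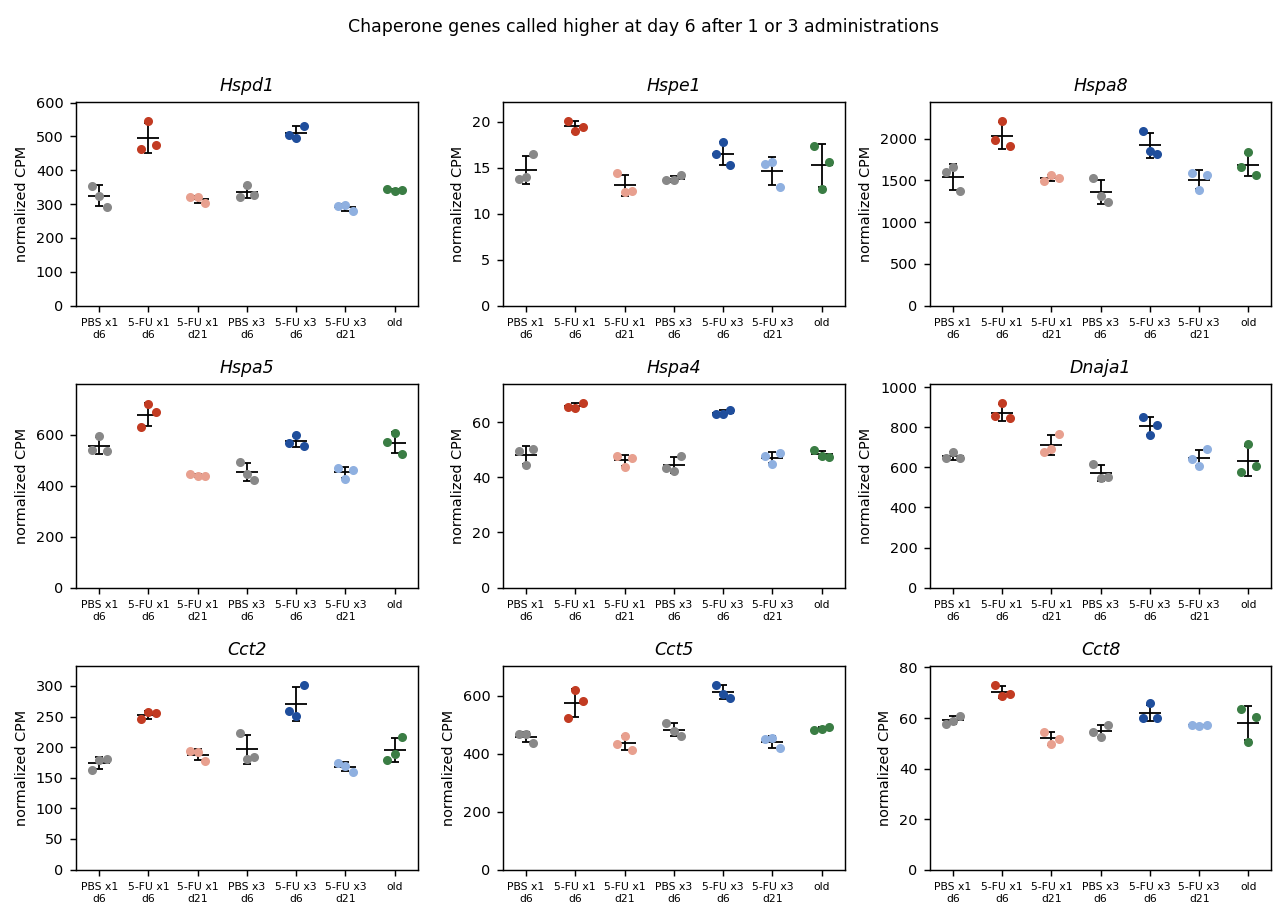
Normalized CPM of members called higher at day 6 in at least 1 comparison, by group, with points for the 3 libraries and marks for the mean ± SD. Hspd1 was at 463 to 547 CPM in the 6 libraries of 5-FU at day 6 and at 279.8 to 357 in the other 15.

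Of the 8 Cct genes tested, all had positive log2 fold changes in both comparisons (medians 0.21 and 0.13), except that Cct4, Cct6a and Cct7 turned negative after 3 administrations when no scaling factor was used (-0.039, -0.025 and -0.047). Cct2, a TRiC subunit, was at 163, 179 and 181 CPM after PBS once and at 245, 258 and 255 after 5-FU once. In the arm of 3 administrations it was at 224, 181 and 184 CPM with PBS and at 259, 251 and 302 with 5-FU. For Cct2 and for Cct5, all 6 libraries of 5-FU at day 6 were above the other 15. Cct2 rose by 0.53 ± 0.067 (adjusted p = 0.00354) and 0.44 ± 0.11 (adjusted p = 0.0383), and Cct5 by 0.32 ± 0.076 (adjusted p = 0.0245) and 0.32 ± 0.066 (adjusted p = 0.0192). Cct8 was called after 1 administration (0.24 ± 0.067 (adjusted p = 0.0398)) and was at 0.16 after 3. Cct3, Cct4, Cct6a and Cct7 were called in neither, with log2 fold changes of 0.16, 0.17, 0.18 and 0.14 after 1 administration and 0.11, 0.061, 0.075 and 0.052 after 3. Cct2 and Cct5 have 2 or more curated transcripts, and Cct3, Cct4, Cct6a, Cct7 and Cct8 have 1. In the list of TRiC partner and prefoldin genes, which hand actin and tubulin to TRiC, 6 of 9 were called higher and none lower after 1 administration, and 2 higher and none lower after 3. Tcp1, the TRiC subunit outside the symbol rule, rose by 0.50 ± 0.06 and 0.50 ± 0.068, and the prefoldin gene Pfdn6 by 0.59 ± 0.094 and 0.40 ± 0.088.

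A fit of all 21 libraries with the log total as a covariate, chosen after seeing the data, called 29 of 79 members higher and 7 lower after 1 administration, where it called 13.8% and 10% of 13571 genes. After 3 administrations it called 26 higher and 6 lower, against 12.8% and 8.5%. Of the members with a single curated transcript, 20 of 41 were then called higher after 1 administration and 18 of 41 after 3. A single fit of the same 21 libraries without the covariate called 11 and 6 of these 41 higher and 2 and 2 lower, where it called 10.9% and 12.2% of all genes higher and 9.01% and 9.49% lower. The separate comparisons called 6 and 3 of 39 higher. Cct3, Cct4, Cct6a, Cct7 and Cct8 were among those called higher in both, with log2 fold changes of 0.17 to 0.27 and 0.17 to 0.27, as were Hsp90aa1, Hsp90ab1, Hsp90b1, Hspa9, Hspe1, Pdia3 and Pdia6 (0.12 to 0.44 and 0.15 to 0.39). Of the 20 members called in the separate comparison after 1 administration 19 were called with the covariate, Hspb11 being lost, and of the 17 after 3 administrations 15 were, Dnajc19 and Hsph1 being lost.

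Hsp90 genes changed little in the separate comparisons. Hsp90aa1, the inducible cytosolic form, was at 78.4, 79.9 and 82.8 CPM after PBS once and at 97.6, 95.2 and 94 after 5-FU once, a rise of 0.24 ± 0.064 (adjusted p = 0.0351), and after 3 administrations its change was 0.18 (adjusted p = 0.179). Hsp90ab1, the constitutive form, was at 114 ± 7.09 and 121 ± 4.92 CPM after 1 administration and at 101 ± 5.14 and 102 ± 5.62 after 3. Hsp90b1 of the ER was at 75.7 ± 1.51 and 86 ± 2.65 CPM, and at 66.2 ± 1.75 and 73.3 ± 3.67, with no call for either gene. Their depth exponents were 0.417, 0.244 and 0.478. Of 23 other cytosolic co-chaperones and regulators, 3 were called higher and none lower in each comparison (medians 0.13 and 0.082). Cdc37, which brings kinases to Hsp90, rose by 0.23 ± 0.066 and 0.28 ± 0.065, and the cyclophilin Ppid by 0.45 ± 0.072 and 0.50 ± 0.073.

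In the ER, BiP was higher at day 6 in both arms. Hspa5 was at 541, 595 and 537 CPM after PBS once and at 629, 721 and 688 after 5-FU once. PBS and 5-FU given 3 times left it at 493, 445 and 423 and 566, 600.1 and 557 CPM. The groups did not overlap within an arm, and the log2 fold changes were 0.28 ± 0.073 (adjusted p = 0.0355) and 0.32 ± 0.076 (adjusted p = 0.0306). The 4 Pdia genes tested had positive log2 fold changes in both comparisons and none was called, and Pdia3 and Pdia6 turned negative after 3 administrations when no scaling factor was used. Pdia4 was at 161 ± 21.3 and 202 ± 23.2 CPM after 1 administration and at 165 ± 19.6 and 209 ± 12 after 3. Pdia3, which works on glycoproteins, was at 0.14 and 0.027 on the log2 scale, Pdia5 at 0.38 and 0.22, and Pdia6 at 0.22 and 0.056.

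Partners of BiP were called in different directions. Dnajc10, a J-domain protein that reduces disulfides, was called higher after 3 administrations (0.30 ± 0.083 (adjusted p = 0.0472); after 1, 0.12 (adjusted p = 0.388)). Dnajb9, which restrains the stress sensor IRE1, was at 14.8 ± 1.32 and 10.5 ± 0.576 CPM after 1 administration and at 15.5 ± 1.03 and 10.7 ± 1.43 after 3, and fell by 0.51 (SE 0.11, adjusted p = 0.019) and 0.56 (SE 0.13, adjusted p = 0.0277) on the log2 scale. Dnajb11, a co-factor of BiP, was at 0.27 (adjusted p = 0.133) and 0.29 (adjusted p = 0.262), Hspa13, a microsomal Hsp70, at 0.36 (adjusted p = 0.0825) and 0.56 (adjusted p = 0.0804), and Dnajc3, an inhibitor of eIF2 alpha kinases, was at 46.6 ± 3.13 and 47.1 ± 4.06 CPM after 1 administration. Of 24 other ER folding genes, 6 were called higher and none lower after 1 administration, and 3 higher and none lower after 3, with Fkbp2 in both (0.47 and 0.46). Of 7 sensors and factors of the unfolded protein response, 1 was called higher and 2 lower after 1 administration, and none higher and 2 lower after 3. Xbp1, the factor that IRE1 activates, rose by 0.36 after 1 administration and fell by 0.38 after 3, and Ddit3, which encodes CHOP, fell by 0.63 and by 1.01.

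The ER stress response element, which ATF6 binds with NF-Y, was searched in the same windows on both strands as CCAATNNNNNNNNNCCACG. It was found in 4 of 92 member promoters (4.35%), those of Hspa5, Hsp90b1, Dnajc3 and Pdia6, and in 37 of 32851 promoters of all genes (0.113%). Each match holds a CCAAT box, which by itself was in 38% of member promoters and 33.8% of all. The sites are shown because these genes share the motif and were not called alike at day 6, Hspa5 in both separate comparisons and the other 3 in neither. With the log total as a covariate, Hsp90b1 (adjusted p = 0.00662 and 0.00497) and Pdia6 (0.004 and 0.0463) were called higher in both as well, and Dnajc3 in neither. They lie at chr2:34772020-34772049 on the plus strand (in the 5′ UTR of Hspa5 by GENCODE vM21), chr10:86705632-86705661 and chr10:86705527-86705556 on the minus strand, chr14:118937822-118937851 (plus) and chr12:17266486-17266515 (plus), 65, 212, 107, 105 and 98 bases before the RefSeq start, with the match in capitals. The nearer site of Hsp90b1 holds the motif on the other strand.
Hspa5: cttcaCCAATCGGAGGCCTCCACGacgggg
Hsp90b1, farther site: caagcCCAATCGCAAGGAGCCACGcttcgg
Hsp90b1, nearer site: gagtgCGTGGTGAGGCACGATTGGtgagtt
Dnajc3: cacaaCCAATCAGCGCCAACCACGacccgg
Pdia6: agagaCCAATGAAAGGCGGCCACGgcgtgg
Hspa5 has 2 or more curated transcripts and an exponent of 0.994, whereas Hsp90b1, Dnajc3 and Pdia6 have 1 and exponents of 0.478, 0.788 and 0.409.

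Members called lower at day 6 were fewer. Dnajc6 was at 43.6, 46.6 and 53.5 CPM after PBS once and at 11.8, 16.7 and 17.3 after 5-FU once. After 3 administrations it was at 65.3, 68.1 and 84.8 CPM with PBS and at 25.2, 24.7 and 35.2 with 5-FU. Without overlap in either arm, it fell by 1.65 (SE 0.16, adjusted p = 0.00161) and by 1.38 (SE 0.17, adjusted p = 0.00422) on the log2 scale. Dnajb2, a J-domain protein that binds ubiquitin and passes clients to the proteasome, was at 85.1, 103 and 102 CPM after PBS once and at 54.5, 55.9 and 71.1 after 5-FU once. After 3 administrations it was at 131, 96 and 95.9 CPM with PBS and at 59.7, 43 and 32.1 with 5-FU. It fell by 0.69 (SE 0.13, adjusted p = 0.0114) and by 1.28 (SE 0.24, adjusted p = 0.0134), and the difference between both was not past the test (adjusted p = 0.39).

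Hspa2, an Hsp70 gene best known from testis, fell from 28.6 ± 5.67 to 13.5 ± 2.96 CPM and from 25.7 ± 5.72 to 14.9 ± 3.4. Of the small heat shock genes, Hspb6 was called lower after 1 administration (12.3 ± 0.774 and 6.83 ± 1.89 CPM, a fall of 0.86 (SE 0.21, adjusted p = 0.0274)) and Hspb8, which works with the co-chaperone Bag3, after 3 (3.56 ± 0.309 and 0.803 ± 0.0654 CPM, a fall of 2.16 (SE 0.37, adjusted p = 0.01)). After 1 administration the libraries of Hspb8 overlapped, at 2.34 ± 0.672 and 1.33 ± 0.772 CPM. Hspb11 was called higher after 1 administration (0.63 ± 0.18 (adjusted p = 0.0469)) and was at -0.14 after 3. Members with no call in either comparison included abundant J-domain genes such as Dnajc7, at 202 ± 6.57 and 192 ± 15.2 CPM after 1 administration and 203 ± 11.1 and 190.1 ± 11.7 after 3.

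The second question was whether the differences were still there at day 21. Against PBS at day 6, edgeR called no member at day 21 after 5-FU once, where 0.0712% of 12647 genes were called higher and 0.15% lower, and none after 5-FU 3 times, where 0.0396% and 0.00792% of 12632 genes were. At an unadjusted p under 0.05 there were 10 and 9 of 75 members, and DESeq2 called 4 and 5, with no share of all genes given for these counts. These comparisons use the same PBS libraries as those at day 6. Hspd1 was at 320.2, 321 and 302 CPM at day 21 after 5-FU once and at 294, 297 and 279.8 after 5-FU 3 times. Cct2 was at 188 ± 8.96 and 168 ± 7.24 CPM, and Hspa8 at 1529 ± 33 and 1512 ± 111. Hspa5 was at 446, 436 and 438 CPM after 5-FU once, below all PBS libraries of that arm (log2 difference -0.34 ± 0.067 (adjusted p = 0.0977)). It overlapped with the libraries of PBS 3 times, which were at 493, 445 and 423 CPM. After 5-FU 3 times, Dnajc6 and Hspb8 were below all PBS libraries of that arm, at 40.4, 46.8 and 23 and 0.785, 0.256 and 0.63 CPM, with log2 fold changes of -0.99 ± 0.25 (adjusted p = 0.186) and -2.67 ± 0.53 (adjusted p = 0.133).

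Compared directly, 25 of 75 members were called lower at day 21 than at day 6 after 5-FU once and 9 higher, where 13.7% of 12589 genes were called lower and 12.3% higher. After 5-FU 3 times, 14 were called lower and 4 higher, against 10.8% and 8.68% of 12553 genes. The median log2 fold changes of the members were -0.28 and -0.073, and those of all genes -0.012 and 0.0081. Hspd1 fell by 0.65 ± 0.084 and by 0.81 ± 0.07 after 1 and 3 administrations, Cct2 by 0.42 ± 0.071 and by 0.68 ± 0.10, Hspa14 by 0.41 ± 0.12 and by 0.87 ± 0.12, and Hspa5 by 0.62 ± 0.071 and by 0.34 ± 0.072. After 1 administration, Dnajc15 fell by 0.62 ± 0.15, Hspe1 by 0.57 ± 0.10 and Dnajc9, a histone chaperone, by 0.51 ± 0.077. Pdia3 and Pdia6 fell after 1 administration, by 0.38 ± 0.10 and 0.42 ± 0.094, and Pdia4 and Pdia5 after 3, by 0.41 ± 0.081 and 0.60 ± 0.13. The test called different numbers of the single-transcript members in both arms, 16 lower after 1 administration, where totals were larger at day 21, and 3 lower after 3, where they were smaller. With the log total as a covariate, 25 of 79 members were called lower after 3 administrations (11.5% of all genes) and 2 higher (7.21%), and 19 of the 25 had a single curated transcript, against 6 in a single fit without the covariate, which called 13.5% of all genes lower and 10.7% higher. Of the 18 members called in the separate comparison, 11 were called with the covariate, and Dnaja1, Dnaja3, Dnaja4, Dnajb11, Hspa2, Hspa8 and Pdia4 (adjusted p = 0.0822) were lost. After 1 administration 31 of 34 were called with it, and Dnajc4, Hspa12b and Hspa2 were lost.

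Of the 6 members called lower at day 6 in at least 1 arm, 5 were called higher at day 21 in comparisons that use the same 5-FU libraries, and Hspb8 was not (-0.54 and -0.52). Dnajb2 rose by 1.01 ± 0.15 and 1.35 ± 0.22 after 1 and 3 administrations, Dnajb9 by 0.76 ± 0.11 and 0.62 ± 0.14, and Hspa2 by 0.79 ± 0.22 and 0.65 ± 0.16. Dnajc6 rose by 1.66 ± 0.19 after 1 administration, to 48 ± 8.7 CPM, and was at 0.38 (adjusted p = 0.362) after 3. Hspb6 (0.82 ± 0.22) and Dnajc28 (0.90 ± 0.20) were called higher after 1 administration, and Dnaja4, a J-domain protein of the Dnaja1 class, after 3 (0.53 ± 0.14). With the log total as a covariate, Hspa2 was not called at day 21 against day 6 in either arm (adjusted p = 0.0523 and 0.109), nor was Dnaja4 after 3 administrations (0.158).

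The stress-inducible Hsp70 genes had another order of groups than Hspa8. Hspa1a (chr17:34969190-34972156) and Hspa1b are near-identical copies, so that their counts may share reads and are uncertain as single values. Hspa1a was at 18.2, 63.2 and 68.3 CPM after PBS once and at 33.1, 50.4 and 34.6 after 5-FU once, which overlapped. It was at 52.5, 72.2 and 27.1 CPM after PBS 3 times, at 76.5, 169.8 and 78.3 after 5-FU 3 times at day 6 and at 92.8, 136 and 118 at day 21. At day 21 after 5-FU once it was at 59.5, 33.2 and 46.1 CPM, and in old HSCs at 27.9, 13.3 and 6.54. All 6 libraries of 5-FU 3 times were above the other 15 for Hspa1a and for Hspa1b, and the test over all groups gave adjusted p-values of 0.00391 and 0.00401. For Hspa1b the margin was small, with the lowest of the 6 at 83 CPM and the highest of the other 15 at 80.3. As their reads may be shared, both genes do not count as separate observations. The share of all genes with such an order was not computed. For Hspa1l, which lies next to Hspa1a, the 6 libraries overlapped with the other 15. Its lowest library of 5-FU 3 times was at 7.23 CPM and the highest of the other 15 at 7.73. The depth exponents of Hspa1a, Hspa1b and Hspa1l were -0.234, -0.148 and 0.841. No comparison of 2 groups called Hspa1a, with log2 fold changes of 1.07 ± 0.43 (adjusted p = 0.13) at day 6 and 1.19 ± 0.34 (adjusted p = 0.223) at day 21 after 3 administrations and -1.66 ± 0.59 (adjusted p = 0.251) in old HSCs. Hspa1b was at 57.6 ± 23.7 CPM after PBS 3 times and at 114 ± 53 and 129 ± 24.4 after 5-FU 3 times at day 6 and day 21. The sum of 10 immediate early genes, which respond to cell handling, was 221 to 248 CPM after PBS 3 times, 198 to 276 and 251 to 266 after 5-FU 3 times at day 6 and day 21, 205 to 235 after PBS once, 197 to 231 and 154 to 196 after 5-FU once at day 6 and day 21 and 188 to 232 in old HSCs, and its part in these values was not tested.

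**Figure D4:**
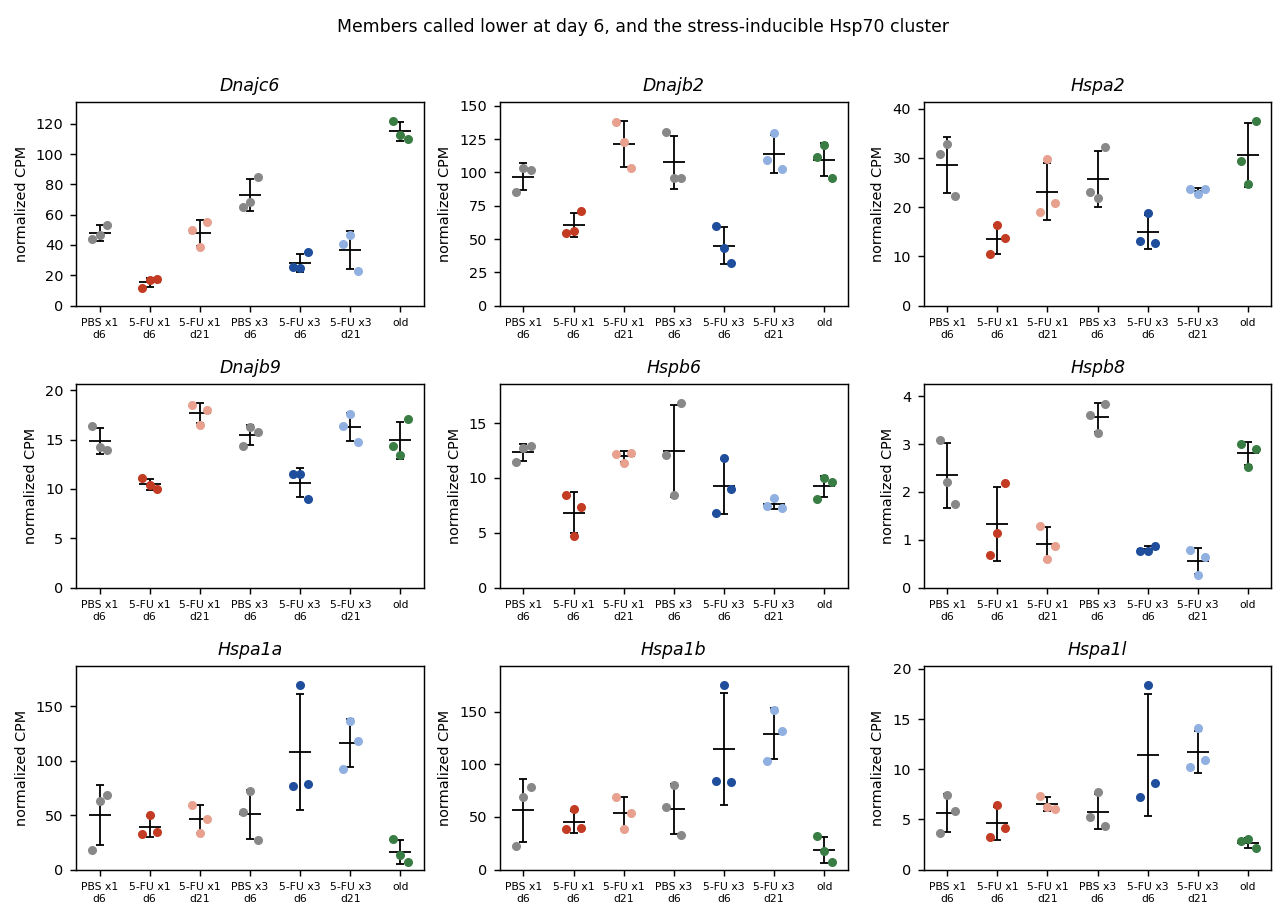
Normalized CPM of members called lower at day 6 and of Hspa1a, Hspa1b and Hspa1l, by group, with points for the 3 libraries and marks for the mean ± SD. Dnajc6 was at 110.1 to 122 CPM in old HSCs and at 11.8 to 17.3 after 5-FU once at day 6, and the 6 libraries of 5-FU 3 times had Hspa1a at 76.5 to 169.8 CPM.

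The third question was age. Between old HSCs and those of mice given PBS once, 2 of 75 members were called higher and none lower, where 1.44% of 12855 genes were called higher and 0.443% lower, and the median log2 fold change of the members was 0.0054. Dnajc6 was at 122, 113 and 110.1 CPM in old HSCs, above all 18 other libraries, and its log2 fold change was 1.26 ± 0.10 (adjusted p = 0.00158). Dnajb4, a cytosolic J-domain protein, was at 118, 118 and 133 CPM in old HSCs and at 93.5, 88 and 81.6 after PBS once, a rise of 0.48 ± 0.093 (adjusted p = 0.0487). With PBS 3 times as the control neither was called, at 0.65 (adjusted p = 0.0616) and 0.36 (adjusted p = 0.241), and Dnajb4 lost its call without any 1 of the 6 libraries. Hspd1, Cct2, Hspa8 and Hspa5 were at 342 ± 3.88, 195 ± 19.5, 1691 ± 139 and 569 ± 41.4 CPM in old HSCs, with log2 fold changes of 0.074, 0.16, 0.13 and 0.026 that were not called. Erythroid markers summed to 62.1 to 132 CPM in old HSCs and 29 to 39.2 after PBS once, and megakaryocyte markers to 215 to 266 and 165 to 202. The megakaryocyte sums of the 3 old libraries were above all 18 others. The part of such cells was not tested. Age and the absence of an injection cannot be told apart. The column names of the PBS once and 5-FU once libraries at day 6 carry a suffix that the sources used here do not explain. Its meaning cannot be told apart from age in this comparison or from the number of administrations. The same holds for time in the comparison of day 21 with day 6 after 5-FU once. It also holds for 5-FU and time in that of 5-FU once at day 21 with PBS once. Between PBS 3 times and PBS once, edgeR called no member, where 0.00781% of 12806 genes were called higher and 0.00781% lower. At an unadjusted p under 0.05 there were 7 members, and DESeq2 called 4, with no share of all genes given for either count.

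Per kb of the longest transcript and among members with 2 or more curated transcripts, Hspa8 had the highest mean level over all libraries, at 525 CPM per kb, followed by Cct5 at 269, Hspd1 at 154 and Hspa5 at 145. The levels of Hspd1 and Hspa5 were 134 ± 12.8 and 152 ± 8.73 CPM per kb after PBS once and 204 ± 18.6 and 185 ± 12.7 after 5-FU once at day 6. In the arm of 3 administrations they were 138 ± 7.73 and 124 ± 9.74 CPM per kb with PBS and 211 ± 7.83 and 156 ± 6.18 with 5-FU. The libraries of both genes overlapped in each of these groups except 5-FU 3 times.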

How the data were processed

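RNA of sorted HSCs had been amplified with SMART-Seq v4, made into libraries with Nextera XT and sequenced as single 75-base reads. Per the labels and methods, the authors used TopHat2 2.0.13 and Cufflinks 2.2.1 (Cuffdiff) with mm10; the deposited values are counts, whole numbers per gene symbol for 21 libraries, and the program that counted them is not given in the sources used here. The labels call the 3 libraries of a group independent experiments, and p-values measure the spread between them.

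From these counts, TMM factors, CPM and quasi-likelihood F tests were computed with edgeR 4.0.16 in R 4.3.3, for the groups of each comparison alone, after filterByExpr, with Benjamini-Hochberg adjustment over all genes tested and a threshold of 0.05. Gene loci came from GENCODE vM21 and promoters and transcript numbers from RefSeq. The members and all lists were chosen with earlier results of these data known. Named were a fixed set of 32 members and those with the 3 smallest interaction p-values. Per comparison, the 5 largest rises and 5 largest falls were added, among members called without overlap at a mean of at least 5 CPM. Hspb8, Hspa1l, Hspbap1, Dnajc2, Dnajc7, Dnajc11, Dnajb6 and the pathway genes were singled out after their values were seen. Alternatives were RLE factors, no factor, DESeq2 1.42.0, no filter, at least 10 counts in every library, a replicate block, a single fit of all libraries, each library left out, PBS 3 times as the control for old HSCs, and, chosen after seeing the data, the log total as a covariate. Replicate numbers did not pair the libraries: 0 pairs correlated over 0.1, and the highest correlation was 0.0578. On simulated counts for 5-FU against PBS after 1 administration (12759 genes), edgeR recovered 90% of 2-fold rises, 78% of falls of the same size and 100% of 4-fold rises and falls, and 4.66% of its calls were false. The simulation gave every gene the same dispersion and counts in proportion to the library total, and changes under 2-fold were not simulated. Its rates therefore do not carry over to members with low depth exponents or to smaller changes, such as that of Hspd1. The level of 1 marker gene is not reported here by itself.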

Additional observations from a re-analysis of the deposited data

Results flagged for a closer look

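In 4 members the groups of a contrast did not overlap in either arm, and their order in 1 arm was opposite to that in the other. All members tested in both arms were searched, and the share of all genes with such opposite orders was not computed. The difference between the arms was not tested. At day 21 against PBS at day 6, Cct3 had a log2 fold change of -0.169 after 1 administration and 0.111 after 3, and Hsp90aa1 of -0.155 and 0.163. At day 21 against day 6 of 5-FU, Hsp90ab1 had -0.282 after 1 administration and 0.141 after 3. Hspbap1, which encodes a protein that binds a small heat shock protein, had 0.885 and -0.37 in the same contrast, at 2.01 ± 0.0718 and 3.7 ± 0.373 CPM after 1 administration and 4.35 ± 0.232 and 3.35 ± 0.182 after 3. The exponents of Cct3, Hsp90aa1 and Hsp90ab1 were 0.414, 0.417 and 0.244, mean totals at day 21 were 31919264 counts after 1 administration and 26109789 after 3, and the part of the total in these values was not tested.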

How the results depend on the processing

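Of 91 calls of a member in a comparison of 2 groups, all were kept with DESeq2 and with at least 10 counts in every library, 89 without a filter, 87 with RLE factors, 87 in a single fit, 77 with the log total as a covariate, 71 without a scaling factor and 70 with a replicate block, and none reversed. With the block, which rests on numbers that did not pair the libraries, 15 members were called at day 6 after 1 administration, 12 after 3, and 1 in old HSCs. The log total as a covariate gave 36 and 32 calls at day 6 and 1 in each comparison of day 21 with PBS. Without a scaling factor 11 were called at day 6 after 3 administrations, 1 at day 21 after 1 administration and 1 in old HSCs, and the summed level was 7885 CPM after PBS once, 7478 at day 21 after 5-FU once (7616 with RLE factors) and 8363 at day 6 after 5-FU 3 times. DESeq2 called 4 and 5 members at day 21 against PBS after 1 and 3 administrations, 5 in old HSCs, 4 between the PBS groups and 1 in the interaction. A single fit called 2 in each comparison of day 21 with PBS, RLE factors 1 in old HSCs, and PBS 3 times as the control 0. Shares of all genes are given for the main fits and, in some comparisons, for the single fit and the covariate. They are not given for the other settings, so that those counts of members cannot be set against all genes. The cause of these moves was not tested.

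With 1 library left out, and so fewer samples, 9 to 15 members were called at day 6 after 1 administration, 7 to 15 after 3, 16 to 30 and 9 to 14 for day 21 against day 6, 36 to 46 over all groups, 1 to 1 in old HSCs and 0 to 0 elsewhere. The count fell by over 1.5 times without any library at day 6 except PBS once replicate 3 and PBS 3 times replicate 1, where it was 15 each, and in the comparisons of day 21 with day 6 except without 5-FU once at day 21 replicate 1 (30) and 5-FU 3 times at day 21 replicates 2 (12) and 3 (14).

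Uncalled log2 fold changes were followed through these settings only for some members, at day 6 after 1 and after 3 administrations. Signs reversed in some of these and in no called change. Uncalled changes in the other comparisons were not examined, so that reversals there are not known. After 1 administration, Dnaja4 ranged from -0.41 to 0.0093 with 1 library left out, and Dnajc3 from -0.064 to 0.059 (without PBS replicate 1, -0.043), with -0.0078 with RLE factors, -0.041 without a factor, -0.0077 with DESeq2 and -0.00054 with at least 10 counts. After 3 administrations, no factor gave -0.039 for Cct4, -0.025 for Cct6a, -0.047 for Cct7, -0.062 for Dnajb1, -0.074 for Dnajc3, -0.013 for Dnajc5, -0.072 for Pdia3 and -0.042 for Pdia6. With 1 library left out, Dnajb1 ranged from -0.065 to 0.13, Dnajc28 from -0.19 to 0.33, Dnajc3 from -0.039 to 0.098, Pdia3 from -0.0046 to 0.063, Pdia6 from -0.0046 to 0.12 and Hsp90ab1 from -0.044 to 0.032, and Hsp90ab1 was at 0.0086 in a single fit and 0.15 with the covariate.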

Other observations

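In old HSCs, Hspbap1 was at 3.42, 3.92 and 4.39 CPM against 1.82, 2.28 and 1.5 after PBS once, a log2 difference of 1.06 ± 0.34 (adjusted p = 0.197) by edgeR. Pdia5 was at 15, 13.5 and 13.9 CPM against 8.6, 8.1 and 10, a log2 difference of 0.67 ± 0.14 (adjusted p = 0.0571).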
